A study of Homo sapiens with 10 samples.

Results

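The broad SMARCB1 domains of G401 cells were described from CUT&RUN peak lists, together with the BRD9 peaks inside them. A domain was a stretch where overlapping peaks of the SMARCB1 lists joined (a shared length of 1 bp or more), where both replicates held a peak, and where the joined width was 10 kb or more. There were 1542 such domains among the 87773 SMARCB1 regions held by both replicates, which is 1.76% of the regions and 16.0% of their length. CUT&RUN uses an antibody to bring a nuclease to a chromatin protein, so that the DNA around the protein is cut out and sequenced. G401 is an established rhabdoid tumour line, labelled SMARCB1(-/-), and all samples carried a doxycycline-switched gene for either SMARCB1 or green fluorescent protein (GFP). The antibodies were a rabbit monoclonal against SMARCB1 and a rabbit polyclonal against BRD9, and the doxycycline dose and time are not given in the sources used here. SMARCB1 was mapped after SMARCB1 induction (2 lists), and BRD9 was mapped after GFP induction (3 lists, the GFP arm) and after SMARCB1 induction (3 lists, the SMARCB1 arm). All lists come from 1 cell line, and the labels do not say whether the replicates were separate cultures, so p-values measure only the spread between these samples. No list was analysed here for the remaining samples, which are IgG with SMARCB1 induced and the SMARCB1 antibody with GFP induced. The names of the SMARCB1 lists state that GFP served as their negative control.

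SWI/SNF complexes spend ATP to move or evict nucleosomes and keep promoters and enhancers open. SMARCB1 is a core subunit of the canonical complex (cBAF) and of PBAF, and rhabdoid tumours are driven by its loss. BRD9, a bromodomain protein that binds acetylated lysine, marks the non-canonical complex (ncBAF), which contains no SMARCB1 and on which SMARCB1-deficient cells depend. Long unbroken stretches of remodeller binding are known from clusters of enhancers.

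The libraries held 64.2 and 59.7 megareads (M reads) for SMARCB1 and 10.1 to 13.9 M reads for BRD9. A median BRD9 peak held 18 to 23 reads, so a missing peak sets only a limit on the BRD9 of a domain. The 2 SMARCB1 lists shared 1 control library, and the 6 BRD9 lists shared another. Labels and headers do not say what the control of the BRD9 lists was.

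The domains covered 28.0 Mb in all. Their median width was 14276 bp, against 1200 bp for the 86231 SMARCB1 regions under 10 kb. Most were near the lower limit: 855 were 10 to 15 kb wide and 315 were 15 to 20 kb wide, while 372 reached 20 kb, 38 reached 50 kb and 5 reached 100 kb. All 1542 merged regions of 10 kb or more held peaks of both replicates. With the same width limit on 1 list alone, there were 868 peaks in replicate 1 and 1320 in replicate 2. The replicates divided the domains differently. Replicate 1 had a median of 3 peaks per domain and 279 domains with a single peak, and replicate 2 had a median of 1 peak and 922 such domains. A peak that was itself 10 kb or wider was present in both replicates in 750 domains and in neither in 218. The peaks of replicate 1 covered a median of 94.0% of a domain's width (lowest 66.4%), and those of replicate 2 covered 99.1% (lowest 84.5%). A domain is the union of the peaks of both lists, so high coverage by each is partly built in and is no test of agreement.

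The width limit cut through a continuous range. Coordinates are those of the SMARCB1 lists, in hg19, the BRD9 lists were read as the same build, which they do not name, and gene annotation of hg19 was not used here. The 3 narrowest domains, on chromosome 1 from 183025476 to 183035476 and from 243922526 to 243932526 and on chromosome 11 from 27715951 to 27725951, were each 10000 bp wide. The 3 widest regions left out were on chromosome 17 from 40607403 to 40617401 (9998 bp), on chromosome 10 from 3111201 to 3121176 and on chromosome 14 from 57668601 to 57678576 (9975 bp each). SMARCB1 density, in reads per kb of peak scaled to the size of the library (RPKM), was 1.89, 1.89 and 1.96 in replicate 1 for the domains just inside, and 2.08, 2.20 and 1.66 for the regions just outside. These 6 regions thus had overlapping densities on either side of the limit.

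Domains lay on 23 chromosomes and were unevenly spread. Per 100 Mb of chromosome, measured up to the last SMARCB1 peak, there were 85.4 on chromosome 8, 79.0 on chromosome 15 and 73.1 on chromosome 10, against 50.4 over all chromosomes. Chromosome 19 held 16.9, chromosome 16 held 11.1 and chromosome X held 4.54 per 100 Mb. The share of regions that were domains differed as well: it was 2.53% on chromosome 8, but 0.443% on chromosome 19 and 0.400% on chromosome 16. The control library's median density in SMARCB1 regions was 0.617 RPKM on both chromosome 8 and chromosome 19 and 0.237 on chromosome X, against 0.416 to 0.501 on the other chromosomes that held domains. Over the 23 chromosomes its Spearman correlation with domains per 100 Mb was 0.031.

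Domains sat near each other. The nearest other domain was a median of 17550 bp away, while an SMARCB1 region under 10 kb was a median of 692425 bp from a domain. Another domain lay within 500 bp of 221 domains (14.3%), within 10 kb of 622 (40.3%) and within 100 kb of 1171 (75.9%). Peaks were joined only where they overlapped, so a short gap within a stretch counts as a boundary between domains. Domains within 10 kb of one another formed 246 chains of up to 7. The longest chain, on chromosome 7 from 80347976 to 80555851, joined 2 domains and was 99.9% domain. The next, on chromosome 2 from 58691076 to 58895226, joined 3 domains, and 4 on chromosome 8 from 58823026 to 59018126 spanned 195100 bp.

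SMARCB1 was denser in the domains than in narrower regions. The rule used the same lists, so this is a description without a test. The median density was 2.24 RPKM in replicate 1 and 2.63 in replicate 2, and the control library had 0.426 and 0.420 RPKM over the same intervals. Regions under 10 kb had medians of 1.44 and 1.48 RPKM, with 0.458 and 0.440 RPKM in the control, so the control library was no denser in the domains. SMARCB1 over control was a median of 5.26 and 6.32 in the domains and 3.15 and 3.45 in narrower regions (those with a control read). The domains held 6.43% and 8.0% of the reads of the SMARCB1 libraries and 1.18% and 1.22% of those of the control. Replicate 2 was denser in 1535 of 1542 domains, and the order of the domains was shared, with a Spearman correlation of 0.979 between replicates over domains that share their control. Wider domains tended to be denser (Spearman 0.397 over the 1542 domains, which share libraries).

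**Figure D1:**
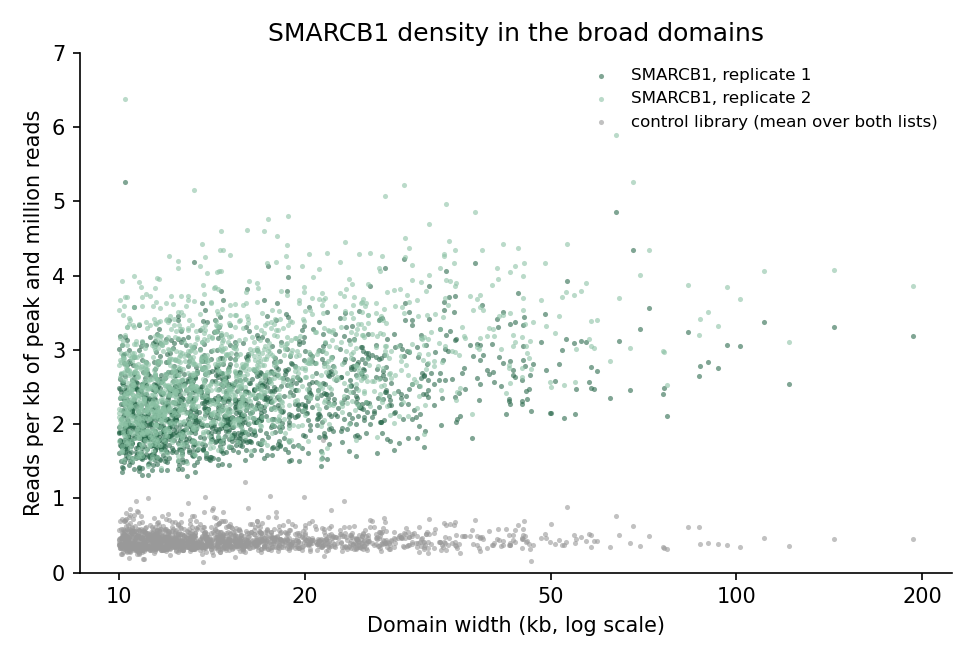
Each domain's width (x, kb, log scale) against read density (y, RPKM) for SMARCB1 replicate 1, SMARCB1 replicate 2 and their control library. Control values cluster near 0.42 at all widths, and replicate 2 lies above replicate 1 in 1535 of 1542 domains.

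The densest domain was on chromosome 8 from 129880626 to 129890826, with 5.26 and 6.38 RPKM in the replicates and 0.718 and 0.708 in the control. The next, also on chromosome 8, were from 58417651 to 58481426 (4.85 and 5.89 RPKM) and from 116543151 to 116611276 (4.34 and 5.26). All 3 sat on the chromosome where the control library was dense as well, at 0.621 to 0.769 RPKM in these domains. The remaining pair, on chromosome 7 from 84151451 to 84180376 (4.22 and 5.22 RPKM) and on chromosome 14 from 68603673 to 68616876 (4.18 and 5.15), had control densities of 0.338 and 0.491 to 0.501.

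BRD9 covered more of the domains in every list of the SMARCB1 arm than in any list of the GFP arm. BRD9 peaks covered 10.4%, 10.6% and 13.5% of the domain length in the lists of the GFP arm and 19.6%, 20.9% and 22.6% in those of the SMARCB1 arm. The groups did not overlap. Mean coverage was 11.5 ± 1.72% against 21.0 ± 1.47% (SD, n = 3 lists in each arm), a difference of 9.52 points or 1.83-fold. With 3 lists against 3, a two-sided exact permutation test gave p = 0.1, the smallest value that this test can give here (adjusted p = 0.1 over 5 tests), so it cannot pass 0.05. The domains were chosen from SMARCB1 peaks of SMARCB1-induced cells, and the part of this choice in the difference was not tested. Away from SMARCB1 regions of both replicates, BRD9 peaks numbered 28096 ± 7906 in the GFP arm and 16185 ± 3262 in the SMARCB1 arm (SD, n = 3 lists each). There the lists did not overlap in the opposite direction. The control library of the BRD9 lists had a median of 1.21 ± 0.0979 and 1.19 ± 0.0101 RPKM in the BRD9 peaks of the domains (GFP arm and SMARCB1 arm; SD, n = 3 lists each), and the arms overlapped.

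The count of BRD9 peaks and the count of domains that held one were also higher in each list of the SMARCB1 arm. Domains contained 2549, 3434 and 3063 BRD9 peaks in the GFP arm against 5155, 5369 and 5529 in the SMARCB1 arm. Per Mb of domain this was 108 ± 15.8 and 191 ± 6.68 peaks (SD, n = 3 each; exact permutation p = 0.1, adjusted p = 0.1). A BRD9 peak was present in 50.5%, 57.9% and 57.2% of the domains in the GFP arm, so more than 1 domain in 2 carried BRD9 in cells without induced SMARCB1. After SMARCB1 induction the shares were 90.1%, 91.3% and 92.3%, higher by 36.1 points on average (exact permutation p = 0.1, adjusted p = 0.1). In narrower SMARCB1 regions, which have less room for a peak, the shares were 6.64%, 10.8% and 8.25% against 21.1%, 20.3% and 21.2%. The ratio of the arms was 2.44 there and 1.65 in the domains, and the difference of these ratios was not tested. At least 2 peaks were present in 40.3 ± 4.16% and 75.2 ± 2.14% of the domains (SD, n = 3 each).

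The share of each BRD9 list that lay in domains was higher in the SMARCB1 arm too. Domains held 8.18%, 13.0% and 11.9% of the length covered by BRD9 in the lists of the GFP arm, and 14.5%, 19.1% and 19.4% in those of the SMARCB1 arm (exact permutation p = 0.1, adjusted p = 0.1). Narrower SMARCB1 regions held 21.1 ± 7.64% in the GFP arm and 47.3 ± 3.34% in the SMARCB1 arm (SD, n = 3 each). The ratio of the arms was 2.24 there and 1.60 in the domains, and the difference of these ratios was not tested. BRD9 library size did not separate the groups (10.98 M reads, SD 0.998, and 12.06 M reads, SD 1.88, n = 3 each). The reads of the BRD9 peaks in domains, per kb of domain and scaled to library size as RPKM, were 0.690 ± 0.110 and 1.05 ± 0.0594 (SD, n = 3 each), a ratio of 1.52. The control library over the same peaks had 0.148 ± 0.0179 and 0.266 ± 0.0191 (SD, n = 3 each), a ratio of 1.79. Both read values rest on the length under peaks and are no measure of the arms apart from it.

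In narrower SMARCB1 regions the arms differed more in proportion, at lower coverage. Their covered length was 3.36%, 4.52% and 4.42% in the GFP arm and 11.2%, 10.2% and 11% in the SMARCB1 arm, a 2.63-fold difference. Coverage of the domains was therefore 3.11, 2.35 and 3.05 times that of the narrower regions in the GFP arm and 1.75, 2.05 and 2.05 times in the SMARCB1 arm. On the log2 scale this ratio was 1.49 ± 0.23 and 0.96 ± 0.13 (SD, n = 3 each), a difference of -0.53 whose groups did not overlap (exact permutation p = 0.1, adjusted p = 0.1). The direction depends on the scale: in points, the lead of the domains was 7.42 ± 1.52 in the GFP arm and 10.2 ± 1.62 in the SMARCB1 arm (SD, n = 3 each), and these lists overlapped (exact permutation p = 0.2, a comparison added after the data were seen).

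**Figure D2:**
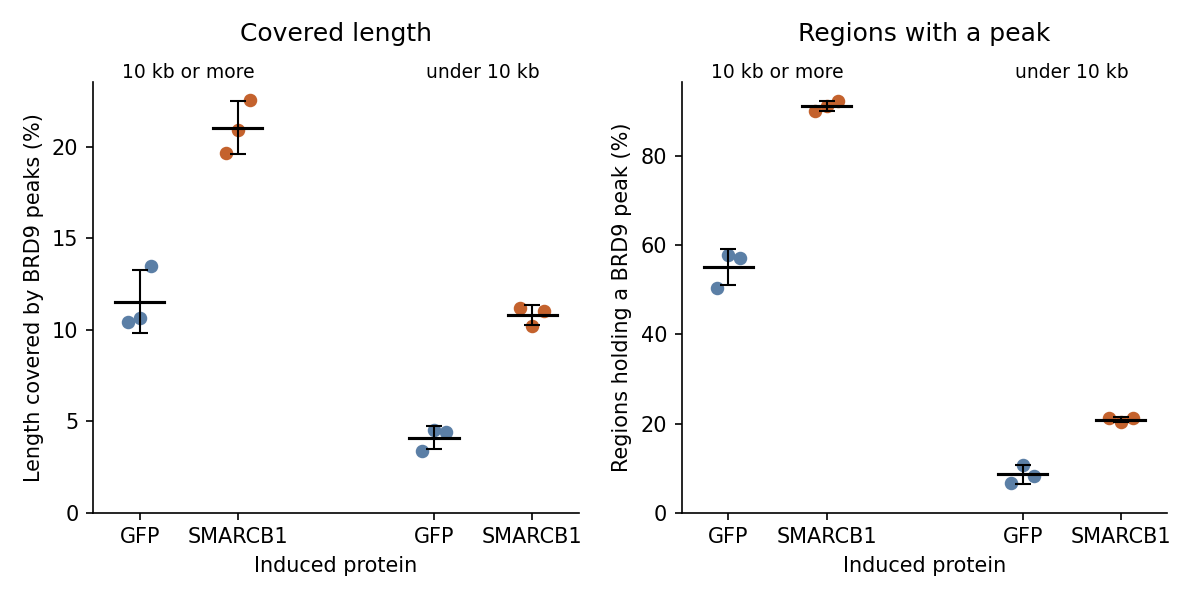
Length covered by BRD9 peaks (left, %) and share of regions that hold a BRD9 peak (right, %) in SMARCB1 regions of 10 kb or more and under 10 kb, by induced protein. Points are single lists, and bars show the mean and SD of 3 lists. Domains sit at 11.5% and 21.0% covered length, and narrower regions at 4.10% and 10.8%.

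By width of the SMARCB1 region, BRD9 coverage was graded, with no step at the 10 kb limit. In the GFP arm it was 4.08 ± 0.634% in regions of 2 to 5 kb, 7.0 ± 0.894% at 5 to 10 kb, 9.74 ± 1.25% at 10 to 15 kb and 13.2 ± 2.20% at 20 to 50 kb (SD, n = 3 lists each). In the SMARCB1 arm the same classes had 12.8 ± 0.605%, 16.9 ± 0.637%, 20.03 ± 1.14% and 22.6 ± 1.87% (SD, n = 3 each). The 38 domains of 50 kb or more had 10.8 ± 1.94% and 19.6 ± 1.96% (SD, n = 3 each), less than 1 SD from the class of 10 to 15 kb. The difference between arms was between 8.59 and 10.3 points in each class of domains, and the ratio of arms was 3.13 at 2 to 5 kb and between 1.69 and 2.06 in the domain classes. Compared only with regions of 5 to 10 kb, the log2 ratio still differed by -0.40 between the groups (exact permutation p = 0.1, n = 3 each, added after the data were seen).

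**Figure D3:**
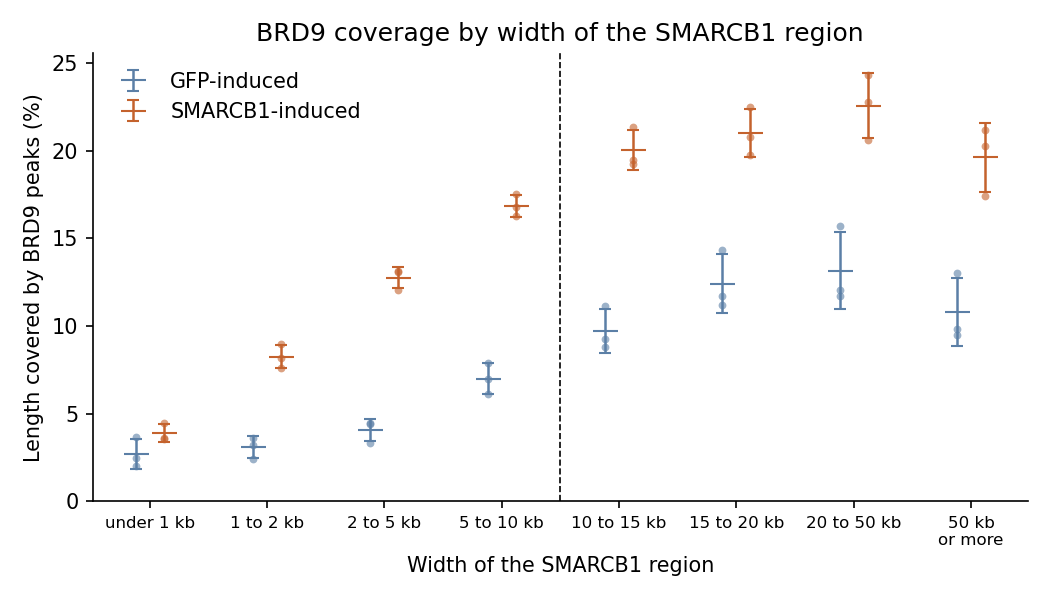
Length covered by BRD9 peaks (y, %) in SMARCB1 regions of 8 width classes (x) after GFP and after SMARCB1 induction; points are lists, bars the mean and SD of 3 lists, and the dashed line marks the 10 kb limit. Coverage is higher in wider classes up to 20 to 50 kb, at 13.2% and 22.6%.

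Domain by domain, BRD9 coverage was higher in all 3 lists of the SMARCB1 arm than in all 3 of the GFP arm in 895 domains (58.0%, against 9.82% of all 87773 SMARCB1 regions) and lower in 71 (4.60%, against 0.909%). In the remaining 576 domains the lists of the groups overlapped or tied. Without GFP replicate 2 the lower domains numbered 115. With SMARCB1 replicate 1 alone there were 868 domains, of which 504 were higher and 43 lower. No BRD9 peak in any list was found in 63.1% of all regions and in 46 domains (2.98%). Such regions can be neither higher nor lower, which reduces both shares over all regions. With 3 lists in each arm, complete separation can also arise without a difference between arms, and these counts were not tested. Among the 3967 regions of 5 to 10 kb, 41.9% were higher and 3.58% lower. A wider region has more room for a peak, and the shares were not adjusted for width.

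The 895 and 71 domains differed in the GFP arm and had similar coverage in the SMARCB1 arm. The 895 had 5.89 ± 0.963% of their length covered in the GFP arm and 22.2 ± 1.38% in the SMARCB1 arm, and the 71 had 37.7 ± 3.51% and 21.8 ± 1.52% (SD, n = 3 lists each). They were chosen on these values, so this is a description. Their SMARCB1 densities were close, with medians of 2.48 and 2.57 RPKM. The control library of the SMARCB1 lists had a median of 0.403 RPKM in the 895, 0.491 in the 71 and 0.452 in the 576, and its part in the direction was not tested.

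By presence of a peak, 693 domains (44.9%, against 3.43% of all regions) held BRD9 in all 6 lists. A further 385 (24.97%, against 7.35%) held it in every SMARCB1-arm list and no GFP-arm list. The opposite was seen in 6 domains (0.389%, against 0.303%). Among the 3967 regions of 5 to 10 kb, the shares of these 3 patterns were 17.5%, 27.1% and 0.277% in that order. BRD9 in the SMARCB1 arm alone was thus no more frequent in the domains than in regions of 5 to 10 kb. The 693 domains were wider and denser in SMARCB1 than the 385, with medians of 15700 and 13250 bp and of 2.75 and 2.32 RPKM, and the control library had 0.474 and 0.365 RPKM there. The 46 domains without BRD9 had medians of 12188 bp and 1.72 RPKM, lower than in the 693 or the 385.

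**Figure D4:**
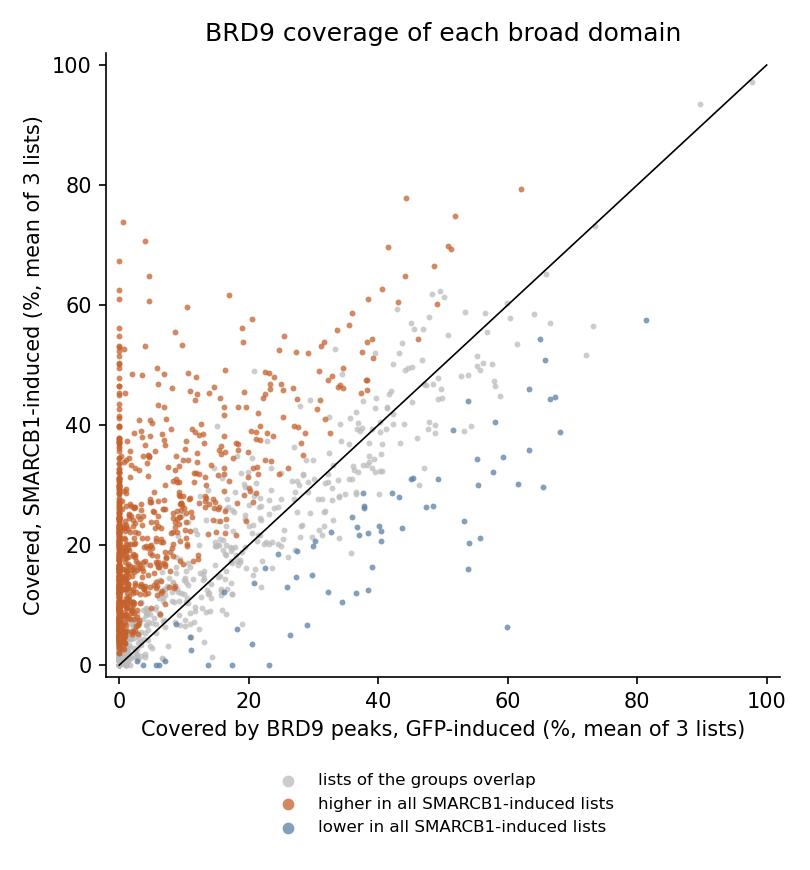
Share of each domain covered by BRD9 peaks (%, mean of 3 lists) after GFP induction (x) and after SMARCB1 induction (y), 1 point a domain; the line marks equal values. Of 1542 domains, 895 are higher in all lists of the SMARCB1 arm and 71 lower, and many of the 895 lie near 0 on the x axis.

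The widest domain, on chromosome 7 from 80347976 to 80541224 (193 kb), had SMARCB1 densities of 3.18 and 3.86 RPKM. BRD9 covered 10705, 10978 and 11835 bp of it in the GFP arm and 29144, 34030 and 34184 bp in the SMARCB1 arm. The groups were well apart, and the domain also ranked among the 5 with the largest increase in mean covered length. The second widest, on chromosome 2 from 58710176 to 58854226 (144 kb), had similar SMARCB1 densities and a smaller difference in BRD9, which covered 28629, 28454 and 32469 bp in the GFP arm and 30957, 32706 and 36941 bp in the SMARCB1 arm, and the lists overlapped. The third, on chromosome 12 from 116546251 to 116667976 (122 kb), held almost no BRD9, with 0, 343 and 1085 bp in the GFP arm and 3016, 3336 and 3527 bp in the SMARCB1 arm. The fourth, on chromosome 9 from 3891576 to 4002526 (111 kb), had the opposite order, with 28143, 34798 and 37632 bp against 20102, 23700 and 24913 bp, the largest difference in that direction of all domains. The fifth, on chromosome 6 from 142623826 to 142725076 (101 kb), had no BRD9 peak in any list of the GFP arm and 22292, 30888 and 24191 bp in the SMARCB1 arm, the largest increase of all domains. The 5 domains of 100 kb or more thus differed widely in BRD9 while their SMARCB1 densities lay between 2.54 and 3.37 RPKM in replicate 1.

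The next 5 by width were on chromosome 10 from 34823201 to 34919801, on chromosome 3 from 115828995 to 115922226, on chromosome 5 from 14161526 to 14251626, on chromosome 2 from 40567351 to 40654551 and on chromosome 12 from 66219701 to 66306576. Mean BRD9 coverage was higher in the SMARCB1 arm in all 5, by 13927, 4016, 8872, 7670 and 14200.0 bp in that order, and the lists of the groups did not overlap in any of them.

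Another 3 domains were among the 5 largest increases. On chromosome 2 from 150950751 to 151003701, BRD9 covered 3793, 3501 and 6289 bp in the GFP arm and 28044, 30888 and 29219 bp in the SMARCB1 arm. On chromosome 3 from 171577376 to 171617626 it covered none in the GFP arm and 20659, 22443 and 21172 bp of 40250 bp in the SMARCB1 arm, more than 1 base in 2. On chromosome 2 from 172907401 to 172965476 it covered 0, 1705 and 1434 bp in the first arm and 16493, 20191 and 21273 bp in the second. The arms did not overlap in any of them, and SMARCB1 densities in these domains, at 2.77 to 3.15 RPKM in replicate 1, were above the median of the domains.

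After the domain on chromosome 9, the largest decreases in mean covered length included a pair on chromosome 4. From 166580638 to 166645176 BRD9 covered 24285, 25503 and 37961 bp in the GFP arm and 18405, 21835 and 20221 bp in the SMARCB1 arm, and from 166449826 to 166467183 it covered 8972, 8984 and 10114 bp against 2172, 2405 and 3753 bp. Both held BRD9 in every list, and the lists of the groups did not overlap in either. On chromosome 1 from 210033301 to 210060051 coverage was 18301, 15981 and 20384 bp in the GFP arm and 11079, 8443 and 11694 bp in the SMARCB1 arm. On chromosome 8 from 127454348 to 127492068 it was 32299, 18590 and 30624 bp against 21403, 18311 and 18737 bp, where GFP replicate 2 lay among the lists of the SMARCB1 arm, so the groups overlapped.

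The densest SMARCB1 domains were not alike in BRD9 either. The domain on chromosome 7 from 84151451 to 84180376 held no BRD9 peak in the GFP arm and 9780, 10147 and 11086 bp in the SMARCB1 arm. The densest of all, on chromosome 8 from 129880626, had 1785, 2547 and 3872 bp against 4091, 5467 and 4561 bp. The one on chromosome 14 from 68603673 had 7195, 5215 and 8119 bp against 9537, 10391 and 9710 bp of 13203 bp. The other two on chromosome 8 had 21084, 24207 and 27840 bp against 28223, 30235 and 32358 bp (from 58417651), and 6180, 4364 and 6896 bp against 7634, 8772 and 10694 bp (from 116543151). The arms did not overlap in any of the 5, and BRD9 was higher in the SMARCB1 arm.

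The widest domains without BRD9 in any list were on chromosome 15 from 55957376 to 55980951 (23575 bp) and from 57503976 to 57525426 (21450 bp). The next were on chromosome 7 from 84749201 to 84768051, on chromosome 3 from 152033701 to 152052227 and on chromosome 7 from 83710125 to 83728276. Their SMARCB1 densities in replicate 1 were 1.63, 2.42, 1.505, 1.67 and 1.96 RPKM, of which all but the second were below the median of the domains. The pair on chromosome 7 lay on either side of the dense domain from 84151451, which held BRD9 in the SMARCB1 arm. The 6 domains that held BRD9 only in the GFP arm were singled out after their values were seen. They were 10000 to 15050 bp wide with SMARCB1 densities of 1.58 to 1.99 RPKM (means of the replicates). BRD9 covered between 277 and 3421 bp of them in the lists of the GFP arm.

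At base-pair resolution, most of the length under BRD9 in all 3 lists of the GFP arm was shared with the SMARCB1 arm, which had further stretches. Of the domain length, 6.44% was under BRD9 peaks in all 3 lists of the GFP arm, and 72.8% of that was also under peaks in all 3 lists of the SMARCB1 arm (92.6% in at least 1). Bases under peaks in only 1 or 2 lists of the GFP arm do not enter these shares, and its lists covered 11.5% on average. In the narrower SMARCB1 regions the same shares were 62.9% and 87.4%. In the SMARCB1 arm 13.2% of the domain length was under BRD9 in all 3 lists, and 40.7% of that was in no list of the GFP arm, against 61.2% in the narrower regions. No BRD9 list covered 65.3% of the domain length, so most of the total domain length lay outside called BRD9 peaks.

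BRD9 peaks merged over the 6 lists gave 7447 BRD9 regions that touched a domain. Of these, 1311 were present in every SMARCB1-arm list and no GFP-arm list, called gained here (17.6%, against 6.85% of all 119939 BRD9 regions), and 60 had the opposite pattern, called lost (0.806%, against 1.04%). A further 1088 were in all 6 lists (14.6%, against 4.67%). Among the 37902 BRD9 regions at narrower SMARCB1 regions the gained share was close to that in the domains, at 17.3%, and the lost share was 0.776%, but only 5.94% were in all 6 lists. The domains therefore held 16.0% of all gained BRD9 regions, 4.82% of the lost and 19.4% of those in all 6 lists.

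Gained BRD9 regions were spread over 722 domains (46.8%), with up to 11 in 1 domain, and lost ones over 55 (3.57%). Over all SMARCB1 regions the shares were 7.84% and 0.412%, and among regions of 5 to 10 kb they were 30.8% and 1.06%, again not adjusted for width. Of the 722, 376 (52.1%) held a BRD9 peak in at least 1 list of the GFP arm, and 171 also held a BRD9 region called in all 6 lists. Such a region of all 6 lists was held by 604 of the 1542 domains (39.2%), a larger share than among the 722. Lost and gained BRD9 regions occurred together in 10 domains, out of 55 with a lost and 722 with a gained one. Over all domains, 1008 (65.4%, against 15.5% of all SMARCB1 regions) held BRD9 in at least 1 list of the GFP arm.

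Single BRD9 peaks differed less between the groups than their number did. In the domains their median width was 718 ± 122 bp in the GFP arm and 815 ± 21.0 bp in the SMARCB1 arm, and their median density was 4.25 ± 0.533 and 3.87 ± 0.249 RPKM (SD, n = 3 each), with overlapping lists in both measures. A BRD9 peak of 10 kb or more was rare in the domains, with 3 to 10 per list. BRD9 peaks in the domains were wider than those at narrower SMARCB1 regions in each of the 6 lists, with medians of 578 to 839 bp against 452 to 649 bp. The BRD9 control library was denser there too, since outside the domains its median was 0.862 ± 0.0837 and 0.905 ± 0.0259 at narrower SMARCB1 regions and 0.282 ± 0.0553 and 0.335 ± 0.0660 RPKM away from SMARCB1 regions (GFP arm and SMARCB1 arm; SD, n = 3 lists each). The part of this control signal in the BRD9 coverage of the domains was not tested.

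Inside a domain, BRD9 was sparser in the outer part. With each domain divided into 10 equal bins, the outermost bins on both sides were covered to 7.70%, 6.30% and 9.72% in the GFP arm and to 11.7%, 11.7% and 12.3% in the SMARCB1 arm. The central pair of bins was covered to 12.1%, 12.6% and 15.6% and to 22.0%, 23.9% and 25.7%. The ratio of centre to edge was 1.73 ± 0.239 and 2.00 ± 0.110 (SD, n = 3 each), and the lists overlapped. At the edge as well as in the centre, each list of the SMARCB1 arm was above each list of the GFP arm.

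**Figure D5:**
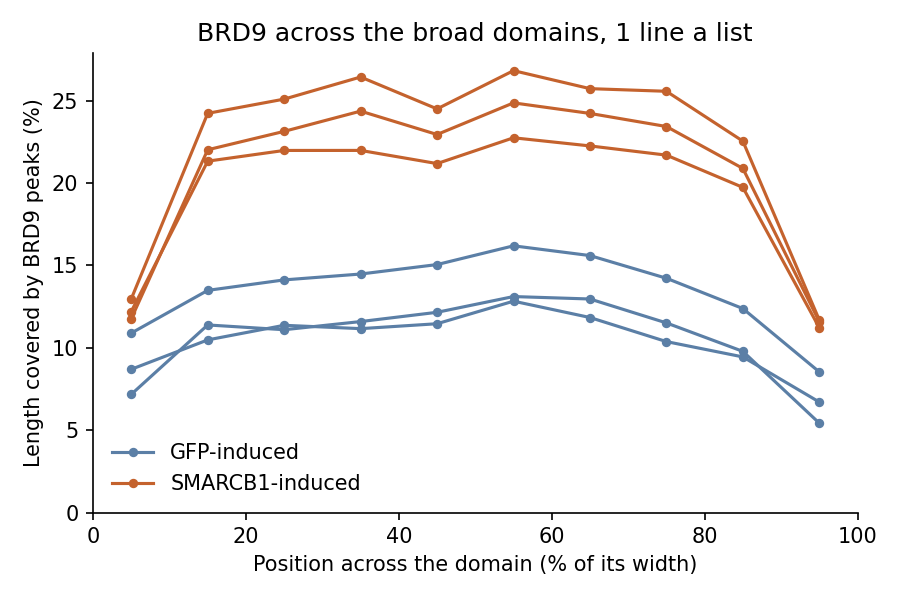
Length covered by BRD9 peaks (y, %) in 10 equal bins across the domain width (x, % of the width), over all 1542 domains, 1 line a list. The lists of the SMARCB1 arm lie above those of the GFP arm in each bin, and all 6 lists are lowest in the outermost bins.

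BRD9 coverage was higher in domains with denser SMARCB1. Divided into 4 equal classes by mean SMARCB1 density, the domains had BRD9 coverage of 4.19 ± 0.640%, 6.23 ± 1.07%, 9.25 ± 1.59% and 20.5 ± 2.86% in the GFP arm, from the lowest class to the highest (SD, n = 3 lists each). In the SMARCB1 arm it was 9.31 ± 0.789%, 15.5 ± 1.14%, 21.0 ± 1.26% and 30.9 ± 2.29% (SD, n = 3 each). The arms differed by 5.12 points in the lowest class and by 11.7 in the next to highest, and their ratio was 1.51 in the highest class against 2.22 to 2.48 in the others. Width and control density differed along the same classes, from medians of 12038 to 18825 bp and from 0.395 to 0.469 RPKM. Over the 1542 domains, which share libraries, the Spearman correlation of SMARCB1 density with BRD9 coverage was 0.447 in the GFP arm and 0.611 in the SMARCB1 arm, and that of control density was 0.545 and 0.305.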

How the data were processed

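Each deposited file lists the peaks of 1 sample, per the labels. For every peak the authors deposited read counts for the sample and for its control, RPKM values and the −log10 of the false discovery rate, used to rank peaks. The submitters' processing notes name BWA 0.7.12-r1039, SAMtools, bedtools, DiffBind and edgeR and the builds hg19, GRCh37 and ASM584v2. The SMARCB1 lists are hg19 by name and the BRD9 lists name no build. The peak caller is not given in the sources used here.

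Library sizes were recovered from counts and RPKM. SMARCB1 density was the reads in a domain's peaks per kb of those peaks, scaled to library size as RPKM. BRD9 coverage was the length of a domain under BRD9 peaks. Groups came from sample titles. Exact two-sided permutation tests compared 3 lists with 3, adjusted by the Benjamini-Hochberg method over 5 tests. Domains named are the 10 widest, the 5 densest in SMARCB1, the 5 largest increases and 5 largest decreases in BRD9 covered length, the 5 widest without BRD9 and the 3 on each side of the limit. Members and lists were chosen with earlier results of these data known. Genes and sequences are not reported, since an hg19 annotation was not used here. Width limits, merging distance, score limits, left-out lists and a replicate block were tried as alternatives. The code was tested on simulated lists. Python 3.11.15, numpy 2.4.6, pandas 2.3.3, scipy 1.17.1 and matplotlib 3.10.9 were used.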

Additional observations from a re-analysis of the deposited data

How the results depend on the processing

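Of 143 recomputed values, 126 kept their direction or stayed within their limits, 16 moved and 1 reversed. The 126 include values identical to the main ones: those of the replicate block, and those of a coverage rule that removed no domain. A difference between arms could also count as kept at a very different size. The share of each list did so at 2.80 and at 13.5 points, against 6.61 in the main analysis. The tally is therefore no measure of stability. With 3 lists against 3 the exact permutation test could not pass 0.05, so it says nothing about stability, and direction and size are compared. The number of domains, 1542, was 5509 with a minimum of 5000 bp, 372 with 20000 bp, 2503 when SMARCB1 peaks within 500 bp were joined, and 868 to 1320 when 1 SMARCB1 list was used alone. Under the first 3 settings the SMARCB1 density, 2.43 RPKM as a mean of the replicates' medians, was 2.04, 2.83 and 2.08, and with 1 list alone it was 2.60 to 2.78. The count of domains with higher BRD9 coverage in every list, 895, was 2558 at 5000 bp and 239 at 20000 bp, and the count with lower coverage, 71, was 213 and 14, and 110 with joining within 500 bp. Leaving out any 1 list gave 504 to 987 higher and 43 to 115 lower; the lowest values came without SMARCB1 replicate 2 (868 domains) and the 115 without GFP replicate 2. Fewer lists make non-overlap easier to reach.

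Leaving out any 1 list, the difference in covered length was 8.76 to 11.1 points, in peaks per Mb 74.9 to 91.7, in domains with BRD9 33.4 to 37.4 points and in the share of each list 4.01 to 8.18 points. The log2 difference between domains and narrower regions was -0.66 to -0.45, and it reversed in points, to 2.82. Over all settings the share of each list differed by 2.80 points (minimum 20000 bp) to 13.5 points (minimum 5000 bp), as the domain set shrank or grew. The rule that each replicate covers at least 50% of the width removed no domain, and 6 domains of high control density made no difference beyond the limits. Treating the replicate number as a pair (replicate block) cannot change a mean difference, so that in covered length was again 9.52 points. Sign-flip tests (exact permutation) gave p = 0.25 for each of the 5 measures, the smallest value 3 pairs allow. Same-numbered lists deviated together with correlations of 0.262, 0.025 and 0.233 over domains. These correlations do not decide whether the numbers mark pairs, and the main tests took the lists as unpaired. Of 198 recomputed values of 22 named domains, 187 stayed within the spread, 11 moved and 0 reversed. BRD9 peaks of 18 to 23 reads limit what a missing call can show.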

Other observations

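By chromosome, BRD9 coverage of the domains was higher in all 3 lists of the SMARCB1 arm than in all 3 of the GFP arm on 20 of the 23 chromosomes that held domains. The exceptions were chromosomes 19, 20 and 21. Chromosome 19 stood out in level: BRD9 covered 40.9% of its 10 domains in the GFP arm and 44.3% in the SMARCB1 arm (means of 3 lists). The domain on chromosome 19 from 28234976 to 28254923 (19947 bp), singled out after its values were seen, had the highest covered share of all domains. In the GFP arm 19382, 19346 and 19737 bp of it were covered, and in the SMARCB1 arm 19514, 19580 and 19073 bp. Its control density in the SMARCB1 lists was 1.04 and 0.999 RPKM, above the median of 0.426 and 0.420 over domains. A domain on chromosome 1 from 28834376 to 28845011 was similar, with 93.5% covered in the SMARCB1 arm and control densities of 0.976 and 0.965 RPKM. The next most covered, on chromosome 6 from 140166651 to 140182776, had control densities of 0.398 and 0.397 RPKM and 79.4% coverage.

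Domains in chains within 10 kb of another were slightly wider than single ones (medians of 15813 and 13313 bp) and slightly denser in SMARCB1 (2.54 and 2.35 RPKM). BRD9 coverage of chained domains was 11.9 ± 2.07% in the GFP arm and 20.4 ± 1.64% in the SMARCB1 arm, and that of single domains was 11.2 ± 1.44% and 21.6 ± 1.35% (SD, n = 3 lists each).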
